A study of Bos taurus with 8 samples.

Results

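The miR-130 and miR-301 family was followed here in the mammary gland of dairy and beef heifers. Its members were taken by name, as bta-miR-130a, bta-miR-130b, bta-miR-301a, bta-miR-301b and bta-miR-454, which are 5 of the 763 bovine microRNAs (miRNAs) on the array. The tissue came from 4 Holstein-Friesian heifers, a dairy breed, and 4 Limousin heifers, a beef breed, all healthy, not pregnant and with no treatment given in the labels. Their age is stated as 20 months in 1 label and as 2 years in another. Each heifer gave 1 sample of gland tissue, taken at slaughter from an udder with no clinical mastitis, and each sample had its own single-colour array. Of the 5 members, miR-130a and miR-130b were detected on all 8 arrays, miR-301a on 2 Holstein-Friesian and all 4 Limousin arrays, and miR-301b and miR-454 on none. None of the 3 detected members differed between the breeds at an adjusted p under 0.05 as scaled here, where 41.9% of the 270 tested miRNAs did. The calls depended on the processing. miR-130a passed as higher in Limousin in 4 of 20 alternatives and miR-130b as lower in 4 of 20. In those settings 81 to 173 of the 270 passed as higher for the former, and 41 to 146 as lower for the latter. miR-301a passed as higher in 2 and as lower in 4 of 19. It entered the test through its Limousin arrays alone, so its calls as higher are no support for a direction.

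A miRNA is a short RNA that guides silencing proteins to messenger RNAs, and pairing between its seed, a run of bases near its 5′ end, and the messenger decides most of its targets. The members of this family share a seed. In human adipocytes miR-130a and miR-130b are known to repress PPARG, the nuclear receptor that drives fat cell formation. In human endothelial cells miR-130a is known to lower homeobox factors that hold back vessel growth. The mammary gland of a heifer is an epithelial tree within a fat pad, and fat cells, vessels and epithelium all contribute RNA to such a sample. In tissue of this kind, fewer cells of a type and less RNA per cell cannot be told apart.

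Each member had a pair of probes on the array, the shorter being the start of the longer, and the longer carrying 1 more base at its 3′ end. A probe is complementary to its miRNA, so the 3′ end of the probe points towards the seed. The longer probes are shown because each was the brighter of its pair and gave the level of its miRNA, 5′ to 3′, with capitals for the longest run that all 5 hold in common.
miR-130a: atgcccttttaacATTGCa
miR-130b: atgccctttcatcATTGC
miR-301a: atgctttgacaatactATTGC
miR-301b: atgctttgacaatatcATTGC
miR-454: accctataagcaatATTGCa
The shared run ATTGC, searched in the probe strand only, was held by the longest probe of 11 of the 763 miRNAs (1.44%), 5 of which are these. The rest of the probe sets the members apart. Counting positions from 1 at the 5′ end, the probes of miR-130a and miR-130b had the same base at 16 of 18 positions and differed by T10C and A12T, with miR-130a first. Those of miR-301a and miR-301b had the same base at 19 of 21 positions and differed by C15T and T16C, as the capitals in the next lines show.
miR-301a: atgctttgacaataCTattgc
miR-301b: atgctttgacaataTCattgc
No other miRNA of the array shared a run of more than 10 bases with any of the 5 probes, the longest being that of miR-6520 with miR-301a.

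In the array annotation, which uses the UMD 3.1 build, the longer probe of miR-130a mapped to chromosome 15 from 82197769 to 82197786. Those of miR-130b (74100594 to 74100610) and miR-301b (74100907 to 74100926) lay side by side on chromosome 17. Those of miR-454 (10339911 to 10339929) and miR-301a (10349561 to 10349580) lay close together on chromosome 19. Each mapped interval is 1 base shorter than its probe. The RefSeq gene table, built on another assembly (ARS-UCD 2.0) and used for names only, places MIR301A and MIR454 within SKA2, a gene of the chromosome segregation machinery, and gives MIR130B and MIR301B as each other's nearest miRNA gene. The family is thus represented by 3 loci, and both paired loci held a detected and an undetected member.

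A single slide, scanned once, held the 8 arrays. Its first position index was 1 for the Holstein-Friesian and 2 for the Limousin arrays, so that breed and position cannot be told apart. Limousin arrays were brighter. The 75th percentile of the probes detected on all 8 arrays ran from 557 to 939 intensity units in Holstein-Friesian and from 943 to 1579 in Limousin, and 243 to 267 and 272 to 297 miRNAs were detected per array. Between 28.6% and 35.5% of spots were well above background and 0 were saturated, and precision is limited by how few arrays there were. Of the markers of epithelium fixed in a list (the miR-200 family and miR-205), 6 of 6 were tested and 0 differed between the breeds (limma, adjusted p under 0.05; 0 also at an unadjusted p under 0.05). At the adjusted threshold 41.9% of all 270 tested miRNAs differed, and at the unadjusted one more than that. With the 75th percentile over all probes 3 of the 6 were higher in Limousin, and with spike-in scaling all 6 were. Of all 270, 104 and 173 were higher in these settings. With quantile normalisation 1 of the 6 was lower.

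The signal of miR-130a stood far above background on every array. Before scaling its longer probe gave 649, 503, 1140.2 and 619 intensity units in Holstein-Friesian replicates 1 to 4. The same probe gave 1337, 1955, 966 and 1513 in Limousin replicates 1 to 4. The Limousin arrays were thus the brighter ones for this miRNA as for the array as a whole, with Holstein-Friesian replicate 3 reaching into the Limousin range. All 240 spots of each of its probes were well above background. The SD over the 30 spots of an array was 32.7 to 108 units, a technical spread that is small against the level. After each array was scaled to the 75th percentile given above, the log2 signal was 9.95, 9.76, 10.19 and 9.91 in Holstein-Friesian and 10.09, 10.22, 9.94 and 10.19 in Limousin. The breeds overlapped, since Limousin replicate 3 lay below Holstein-Friesian replicates 1 and 3. The means were 9.95 ± 0.18 (SD, n = 4) in Holstein-Friesian and 10.11 ± 0.12 (SD, n = 4) in Limousin. The difference, Limousin minus Holstein-Friesian throughout, was 0.16 on the log2 scale (SE 0.13), a ratio of 1.12 with a 95% confidence interval of 0.921 to 1.35, and did not pass (limma adjusted p = 0.346 over 270 tested miRNAs). Without scaling miR-130a passed as higher, at 1.01 (adjusted p = 0.00234), as it did with spike-in scaling, at 0.94 (adjusted p = 0.00160), and with probe length and GC content corrected for it turned to -0.13 (adjusted p = 0.497). Both without scaling and with spike-in scaling, 173 of all 270 miRNAs passed as higher.

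**Figure D1:**
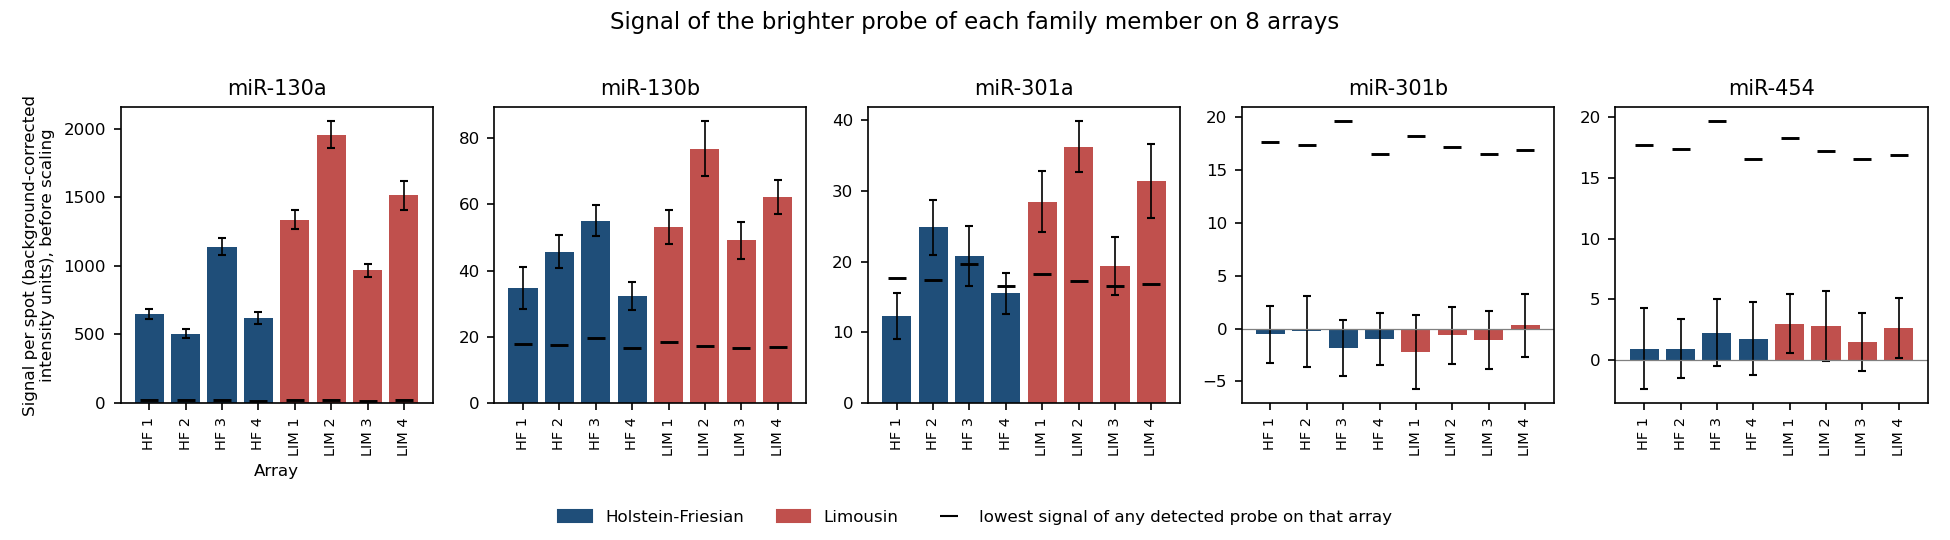
Background-corrected signal (intensity units, vertical axis, before scaling) of the brighter probe of each member on the 4 Holstein-Friesian (HF) and 4 Limousin (LIM) arrays; bars are means over the spots of an array, error bars their SD, dashes the lowest signal of any detected probe on that array, and the vertical axes differ between panels. The bars of miR-130a run from 503 to 1955, those of miR-301a straddle the dashes in Holstein-Friesian, and those of miR-301b and miR-454 stay near 0.

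Detection of miR-130b was as complete as that of miR-130a, with a signal much nearer to the detection limit of its arrays. Its longer probe gave 34.6, 45.7, 55.1 and 32.3 intensity units in Holstein-Friesian replicates 1 to 4 before scaling. In Limousin it gave 53.1, 76.9, 49.1 and 62.3 units, and the lowest signal of any detected probe was 16.5 to 19.7 units per array. Before scaling the Limousin arrays were thus on the whole the higher ones. Scaling turned the order: the log2 signal was then 5.72, 6.30, 5.82 and 5.65 in Holstein-Friesian and 5.44, 5.55, 5.65 and 5.59 in Limousin. All 4 Limousin values lay below all 4 Holstein-Friesian values, by a gap of only 0.0014 between Limousin replicate 3 and Holstein-Friesian replicate 4. Of the 270 tested miRNAs 36.7% had breeds that did not overlap, so that a gap of this kind was common on these arrays.

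The mean scaled log2 signal of miR-130b was 5.87 ± 0.29 (SD, n = 4) in Holstein-Friesian and 5.56 ± 0.088 (SD, n = 4) in Limousin. The difference of -0.32 (SE 0.15), a ratio of 0.803 with a 95% confidence interval of 0.637 to 1.01, did not pass (limma adjusted p = 0.116). Holstein-Friesian replicate 2, at 6.30, was the highest of the 8 arrays. Without it the difference was -0.17 (limma adjusted p = 0.201). The sign turned without scaling, at 0.54 (adjusted p = 0.0931), and the miRNA passed as lower in Limousin once probe length and GC content were corrected for, at -0.47 (adjusted p = 0.0197). With that correction 52 of all 270 miRNAs passed as lower and 25 as higher.

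The third detected member, miR-301a, lay at the edge of detection. Its longer probe gave 12.3, 24.9, 20.8 and 15.5 intensity units in Holstein-Friesian replicates 1 to 4, and 1, 29, 20 and 9 of its 30 spots were well above background there. In Limousin it gave 28.5, 36.3, 19.4 and 31.4 units with 30, 30, 21 and 30 such spots. In all, 59 of 120 spots in Holstein-Friesian and 111 of 120 in Limousin were well above background, and replicates 1 and 4 of Holstein-Friesian fell short of the 50% that counts as detection. The Limousin arrays were also the brighter ones on the whole, although Holstein-Friesian replicate 2, with 29 such spots, had the lowest 75th percentile of all 8, and the part of array brightness in these counts was not tested. The detection call of the scanner software, which pools spots, was positive on all 8 arrays, while asking for every spot to be well above background left 0 Holstein-Friesian and 3 Limousin arrays.

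After scaling the order by breed seen in the spots was gone. The log2 signal of miR-301a was 4.23, 5.42, 4.41 and 4.59 in Holstein-Friesian and 4.54, 4.47, 4.31 and 4.60 in Limousin. The highest and the lowest of these 8 values were both Holstein-Friesian, and the Limousin values lay between them. Means were 4.66 ± 0.53 (SD, n = 4) and 4.48 ± 0.13 (SD, n = 4), a difference of -0.18 (SE 0.23) with a 95% confidence interval of the ratio from 0.619 to 1.25 (limma adjusted p = 0.562). Without Holstein-Friesian replicate 2 the difference turned to 0.073 (limma adjusted p = 0.633). The miRNA entered the test through its 4 Limousin arrays alone, and 2 of its Holstein-Friesian values are below detection. The difference also turned without scaling, where the miRNA passed as higher in Limousin at 0.67 (adjusted p = 0.0367), whereas with length and GC content corrected for it passed as lower at -0.69 (adjusted p = 0.0125). Among all 270 miRNAs, 173 passed as higher without scaling and 52 as lower with that correction.

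**Figure D2:**
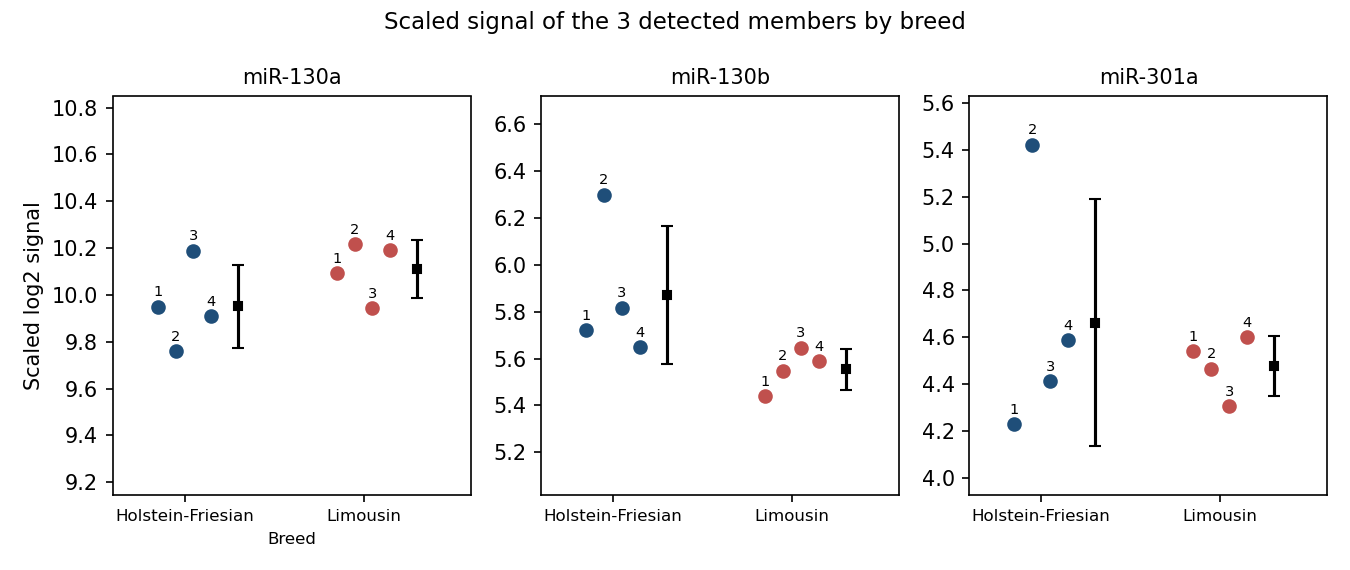
Scaled log2 signal (vertical axis, the same span in each panel) of miR-130a, miR-130b and miR-301a by breed; points are single arrays numbered by replicate, and squares with bars are the mean and SD of 4 arrays. Holstein-Friesian replicate 2 is the lowest array for miR-130a, at 9.76, and the highest for miR-130b, at 6.30, and for miR-301a, at 5.42.

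Holstein-Friesian replicate 2 was the lowest array of its breed for miR-130a and the highest for miR-130b and miR-301a. For miR-130a it was replicate 3, at 10.19, that lay farthest from the next array, and the breed difference was 0.24 without it and 0.099 without replicate 2. Replicate 2 also had the fewest detected miRNAs of all arrays, 243, and the lowest 75th percentile, 557 intensity units. In no member was the gap of an array to the next large enough to pass Dixon's test at 4 samples, the nearest being 0.741 of the range for miR-130b in Holstein-Friesian.

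The last pair of members, miR-301b and miR-454, gave no signal that could be told from background. The longer probe of miR-301b ran from -2.25 to 0.32 intensity units over the 8 arrays and the shorter from -2.65 to -0.25. Of the 240 spots of each probe, 0 of the longer and 1 of the shorter were well above background. The probe of miR-301a that has the same base at 19 of 21 positions reached 36.3 units on an array where that of miR-301b was at -0.65. For miR-454 the longer probe ran from 0.94 to 3.01 units, above 0 on all 8 arrays, and the shorter from -1.66 to -0.56, below 0 on all 8. The longer probe was the higher on all 8 arrays for 22.3% of the 399 miRNAs whose paired probes differ by 1 base and were detected on no array, so this order was not rare. Both members lay below the lowest detected signal of every array in both breeds, and no fold is given for them.

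**Figure D3:**
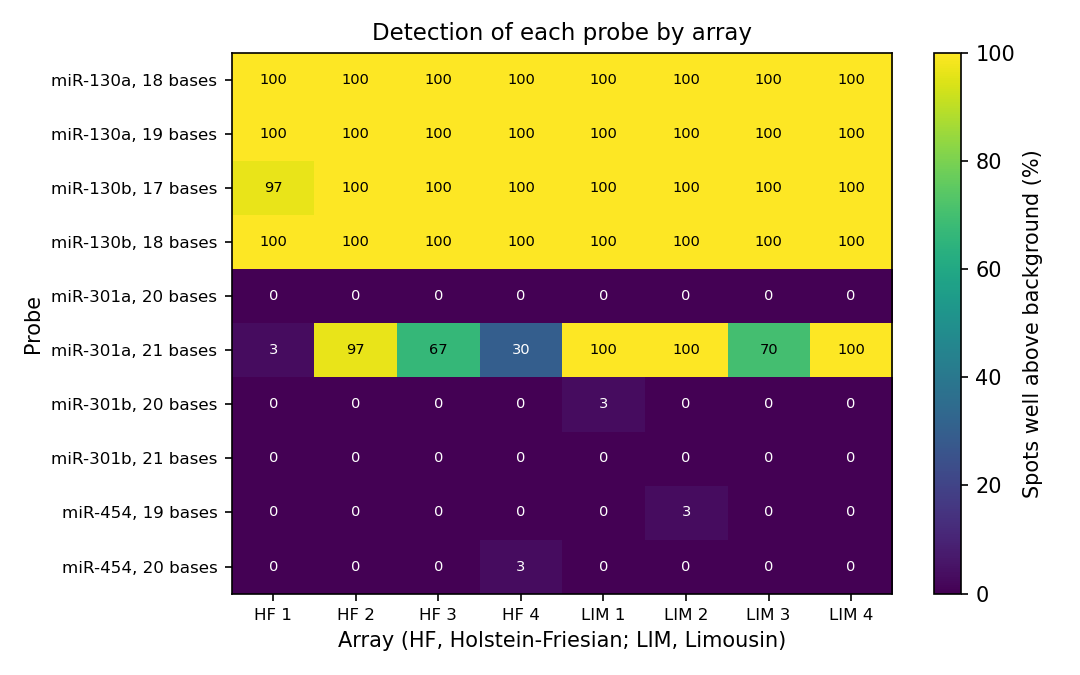
Share of the spots of each probe (rows, with probe length) that were well above background on each array (columns; HF, Holstein-Friesian; LIM, Limousin), in percent. Both probes of miR-130a and miR-130b are at 96.7% to 100%, the longer probe of miR-301a runs from 3.33% to 100%, and its shorter probe and those of miR-301b and miR-454 stay at or below 3.33%.

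The probes of miR-301a differed by 1 base, and only the longer was detected. Its probes are atgctttgacaatactattg and atgctttgacaatactattgC, where the capital is the base that the shorter lacks. The shorter ran from -0.45 to 3.19 intensity units and had 0 of 240 spots well above background, against 12.3 to 36.3 units and 170 of 240 spots for the longer. Of the 244 miRNAs whose longer probe, by 1 base, was detected on all 4 arrays of a breed, 13.5% had a shorter probe that was detected on no array. For miR-130a and miR-130b both probes were detected on every array, and the longer was the higher on all 8.

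Fitted one by one among 495 probes, of which 40.2% passed at an adjusted p under 0.05 (13.7% higher in Limousin), the probes of a member gave the same direction. Both probes of miR-130a were higher in Limousin without passing, by 0.14 for that of 18 bases and by 0.16 for that of 19 (limma adjusted p = 0.398 and 0.350). The probe of 17 bases of miR-130b was lower in Limousin by -0.45 (SE 0.16) and passed (limma adjusted p = 0.0448), while that of 18 bases, at -0.32, did not (limma adjusted p = 0.116). The call of the shorter probe was lost when any array but Holstein-Friesian replicate 2 was left out, with adjusted p up to 0.119, and its sign turned without scaling, at 0.40 (adjusted p = 0.201).

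The longer probe of miR-130b exceeded the shorter by 0.38 ± 0.051 on the log2 scale in Holstein-Friesian (SD, n = 4) and by 0.51 ± 0.028 in Limousin (SD, n = 4). The Holstein-Friesian arrays ran from 0.32 to 0.44 and the Limousin arrays from 0.49 to 0.55, so the breeds did not overlap (difference 0.13, two-sided exact permutation p = 0.0286, the smallest that 4 against 4 arrays can give). The ratio was looked at after the values were seen. It does not change with a constant per array, but with quantile normalisation the difference was 0.035 (exact permutation p = 0.514), and with cyclic loess it was 0.12 (exact permutation p = 0.0286). Without Limousin replicate 2, 3 or 4 it was 0.12 to 0.14, with an exact permutation p of 0.0571 each time. For miR-130a the same ratio was 0.25 ± 0.029 and 0.27 ± 0.016 (SD, n = 4 each) and the breeds overlapped (difference 0.022, exact permutation p = 0.314). Among the 173 miRNAs with a pair of nested probes detected on all 8 arrays the breeds did not overlap for 11% (6.36% with the ratio higher in Limousin).

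**Figure D4:**
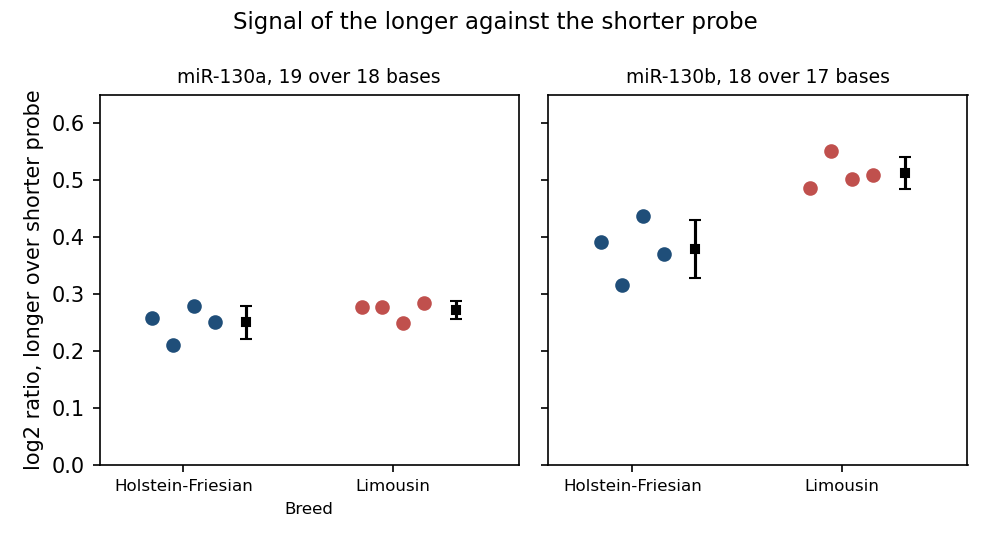
log2 ratio of the longer over the shorter probe (vertical axis) of miR-130a and miR-130b by breed; points are single arrays, and squares with bars are the mean and SD of 4 arrays. For miR-130b the Limousin arrays, from 0.49, all lie above the Holstein-Friesian arrays, which end at 0.44, and for miR-130a the breeds overlap.

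Whether miR-130a and miR-130b moved apart was asked with the ratio of their signals within each array, which a scaling by a constant per array leaves as it is. The log2 ratio of miR-130a over miR-130b was 4.08 ± 0.42 in Holstein-Friesian (SD, n = 4) and 4.56 ± 0.17 in Limousin (SD, n = 4). Holstein-Friesian arrays ran from 3.46 to 4.37 and Limousin arrays from 4.30 to 4.67, a small overlap. The difference of 0.48 did not pass (two-sided exact permutation p = 0.0571, 1 pair tested, smallest possible p 0.0286). Without Holstein-Friesian replicate 2 it was 0.27 (exact permutation p = 0.0857), and over the 8 arrays left out in turn the exact p was 0.0571 to 0.143. With scalings that act by intensity the difference was 0.33 (quantile, exact permutation p = 0.143) and 0.24 (cyclic loess, exact permutation p = 0.257).

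Set beside all tested miRNAs, 0 of the family's 3 tested members passed limma at an adjusted p under 0.05, where 41.9% of the 270 passed (13.7% higher and 28.1% lower in Limousin). At an unadjusted p under 0.05, which more than 41.9% of the 270 passed, the family also had 0 of 3. The median log2 difference of the 270 was -0.069 as scaled here and 0.78 without scaling. Relative to that median miR-130a lay at 0.23, miR-130b at -0.25 and miR-301a at -0.12, the same by construction under each scaling that multiplies an array by a constant. In the deposited value table miR-130a read 3.89, 3.86, 4.20 and 3.92 in Holstein-Friesian and 4.37, 4.51, 4.25 and 4.45 in Limousin. The breeds did not overlap there, and miR-130a passed as higher in Limousin, by 0.43 (limma adjusted p = 0.0170), with the median of the 270 at 0.25. Of the 270 there 30% passed as higher and 10.4% as lower, and the breeds did not overlap for 40.7% (32.6% higher in Limousin). In the same table miR-130b was at -0.096 (adjusted p = 0.651) and miR-301a at 0.093 (adjusted p = 0.769).

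**Figure D5:**
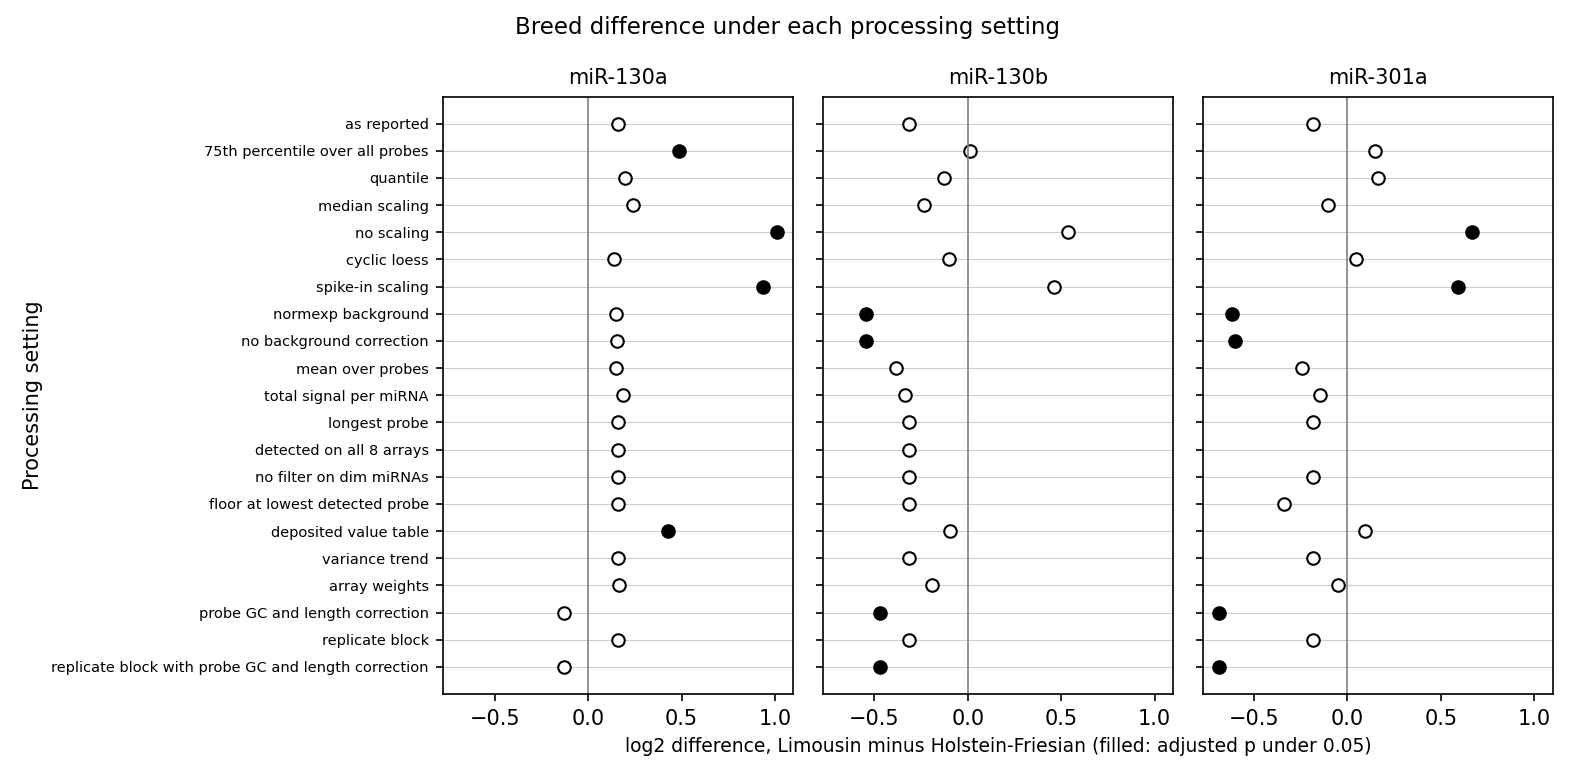
log2 difference, Limousin minus Holstein-Friesian (horizontal axis), of miR-130a, miR-130b and miR-301a under each processing setting (rows); filled points passed at an adjusted p under 0.05. miR-130a passed as higher in 4 of 20 alternatives, miR-130b as lower in 4 of 20, and miR-301a as higher in 2 and as lower in 4 of 19. In the settings where miR-130a passed, 81 to 173 of all 270 miRNAs passed as higher. Where miR-130b passed, 41 to 146 passed as lower. miR-301a entered the test through Limousin alone.

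Other miRNAs linked to PPARG and fat cells were read from a list. Of 23 on the array 17 were tested, of which 4 were higher and 5 lower in Limousin and 8 did not pass, beside 13.7% higher and 28.1% lower over all 270, with a median log2 difference of -0.0054 against -0.069 over all 270. The higher ones were miR-204, known in mice and humans to favour fat over bone in mesenchymal progenitor cells, at 2.40 (limma adjusted p = 1.2e-06), the leukocyte-enriched miR-155, at 0.95 (limma adjusted p = 0.0012), miR-27b and miR-375. Picked out after the values were seen, miR-27b, another repressor of PPARG in human fat cells, rose by 0.36 (limma adjusted p = 0.0208), while its relative miR-27a-3p was at 0.078 (adjusted p = 0.634). No fold is given for miR-375, none of whose Holstein-Friesian arrays was well above background. It entered the test through Limousin alone, where it is high, so its call is no support for a direction of the list. The lower ones were miR-378b, at -0.78 (limma adjusted p = 0.0036), miR-378c, miR-210, miR-193a-5p and miR-365-3p, and all 5 changed sign and did not pass without scaling. In that setting the list had 12 of 17 higher and 0 lower, beside 64.1% higher over all 270. Among these 12, miR-375, miR-33a and miR-335 entered the test through Limousin alone. The 4 higher ones passed as higher without scaling too, but leaving out the scaling raised the differences of all tested miRNAs by about the same amount. Their median over the 270 moved from -0.069 to 0.78, so neither the kept nor the turned signs are further support.

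The miR-148 and miR-152 miRNAs carry a seed shifted by a base against that of the family. All 3 were tested and 0 passed (limma; 0 also at an unadjusted p under 0.05), beside 41.9% of all 270 at the adjusted threshold and more at the unadjusted one. The difference was 0.12 for miR-148a, 0.034 for miR-148b and 0.26 for miR-152. The last was detected on 1 Holstein-Friesian array and entered the test through Limousin alone. Without scaling all 3 passed as higher, as did 64.1% of all 270. miR-152 also passed as higher with quantile normalisation, at 0.60 (limma adjusted p = 0.0163), and cyclic loess, at 0.49 (adjusted p = 0.0259). With the 75th percentile over all probes miR-152, at 0.59 (adjusted p = 0.0058), and miR-148b, at 0.36 (adjusted p = 0.0383), passed as higher. The number higher of all 270 was 54 with quantile, 54 with cyclic loess and 104 with that percentile.

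Markers of other cells that the gland holds were read beside the family, and their counts stand beside 13.7% higher and 28.1% lower over all 270. Of 5 leukocyte miRNAs 4 were tested and 2 were higher in Limousin, miR-155 and miR-142-5p. The others tested, miR-223 at -0.15 and miR-150 at 0.022, did not pass, and miR-142-3p was detected on no array. The summed scaled signal, with miR-142-5p the brightest of the list, was 1026 to 1539 in Holstein-Friesian and 1477 to 1895 in Limousin. Of 5 fibroblast and smooth muscle miRNAs 2 were higher, miR-199a-3p and miR-199a-5p. The others, miR-145 at -0.23, miR-143 at -0.064 and miR-214 at 0.0048, did not pass. With cyclic loess miR-145 passed as lower, at -0.26 (limma adjusted p = 0.0425). The sums of the list were 9036 to 9778 and 9360 to 10957. Of the endothelial miRNAs 0 of 2 passed (sums 2737 to 3509 and 3180 to 4006), and of the red cell miRNAs 0 of 1 tested of 3 (28.9 to 135 and 31.1 to 50.4, with miR-144 and miR-486 detected on no array). The endothelial miR-126-5p passed as higher with cyclic loess, at 0.51 (limma adjusted p = 0.0379), where 54 of all 270 did. With the 75th percentile over all probes miR-126-5p, miR-126-3p and miR-214 passed as higher (limma adjusted p = 0.0068, 0.0125 and 0.0483), where 104 of all 270 did. Of the 4 skeletal muscle miRNAs 1 was tested and did not pass (20.0 to 34.0 and 18.0 to 46.7, with miR-206 detected on no array), and the epithelial sums were 17792 to 19968 and 18822 to 20644. The part of any of these cells in the levels of the family was not tested. Without scaling, where 64.1% of all 270 passed as higher in Limousin, every tested marker of leukocytes, endothelium, epithelium, skeletal muscle, and fibroblasts and smooth muscle did so, and the red cell marker did not. The skeletal muscle marker, miR-1, was detected on 2 Holstein-Friesian arrays and entered the test through Limousin alone.

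The miRNAs whose scaled signal ran most like that of each member over the 8 arrays, once the mean of each breed was taken off, were found among 230 candidates detected on all 8 arrays. For miR-130a these were miR-10b (Pearson's r = 0.92) and the epithelial miR-200b (r = 0.87). For miR-130b they were miR-362-5p (r = 0.98) and miR-20b (r = 0.96). Over the 7 arrays without Holstein-Friesian replicate 2 these values were 0.88 and 0.89 for miR-130a and 0.81 and 0.74 for miR-130b. Between miR-130a and miR-130b themselves r was -0.48 over 8 arrays and 0.22 over 7, so the opposite course of this pair rested on that array. All these values share arrays, scaling and brightness.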

How the data were processed

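Total RNA from mammary tissue of 8 heifers was labelled with a single dye and hybridised to Agilent bovine miRNA arrays, 1 array per animal. The authors deposited scanner files with spot intensity values, made with Agilent Feature Extraction 10.10.1.1, whose processed signal has a spatially fitted background subtracted, per the file headers. They also deposited a table of log2 values, which equals log2 of the software's total signal per miRNA minus a constant for each array, to within 9.7e-06. The column medians are -9.79 to -8.53, and how the constants were chosen is not given in the sources used here.

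From the processed signal, spots flagged as outliers were left out of probe means. A probe was detected where over 50% of its printed spots were well above background. Each array was divided by its 75th percentile, taken over 429 probes that were detected on every array, multiplied by the mean percentile, floored at 1 and put on the log2 scale. The brightest probe stood for a miRNA. The 270 miRNAs detected on all 4 arrays of either breed were tested with limma 3.58.1 in R 4.3.3, with Benjamini-Hochberg adjustment at 0.05, after the code was tested on simulated data. Ratios within an array were tested with exact two-sided permutation tests. Per the labels, samples of a breed are biological replicates. The 5 family members were named in full, with the 2 miRNAs most like each member detected on all 8 arrays, and the 3 tested miRNAs of a list with the smallest p. Mature sequences were not used here, so other miRNAs of the same seed were not searched for. The members and lists were chosen with earlier results of these data known. Alternatives in scaling, background, detection, probe choice, model and left-out arrays were run.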

Additional observations from a re-analysis of the deposited data

How the results depend on the processing

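The difference of miR-130a became significant, as higher in Limousin, with the 75th percentile over all probes (0.49), without scaling (1.01), with spike-in scaling (0.94) and in the deposited value table (0.43), and it turned with the probe GC and length correction (-0.13) and with that correction and a replicate block (-0.13). The difference of miR-130b turned with the percentile over all probes (0.013), without scaling (0.54) and with spike-in scaling (0.46), and became significant, as lower, with normexp background (-0.55), no background correction (-0.54), the GC and length correction (-0.47) and that correction with a replicate block (-0.47). The difference of miR-301a turned with the percentile over all probes (0.15), quantile (0.16), no scaling (0.67), cyclic loess (0.048), spike-in scaling (0.59) and the deposited table (0.093), being significant as higher without scaling (adjusted p = 0.0367) and with spike-in scaling (adjusted p = 0.0359), and became significant, as lower, with normexp (-0.62), no background correction (-0.60), the GC and length correction (-0.69) and that with a replicate block (-0.69). The adjusted p over the alternatives was 0.00160 to 0.568 for miR-130a, 0.00458 to 0.955 for miR-130b and 0.00481 to 0.891 for miR-301a. The last entered the test through Limousin alone. Without scaling the probe of 17 bases of miR-130b was at 0.40, that of 18 bases at 0.54 and that of 21 bases of miR-301a at 0.67. The number of miRNAs called, 113 (37 higher, 76 lower), was 175 (173 and 2) without scaling, 177 (173 and 4) with spike-in scaling, 172 (26 and 146) with normexp, 170 (27 and 143) with no background correction and 59 (18 and 41) with the replicate block and GC correction. It was 77 (25 and 52) with the GC and length correction alone. The split was 104 and 30 with the percentile over all probes, 54 and 42 with quantile, 81 and 28 in the deposited table, 54 and 59 with cyclic loess and 45 and 54 with total signal per miRNA. The cause was not tested.

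With 1 array left out at a time the differences were 0.099 to 0.24 for miR-130a, -0.39 to -0.17 for miR-130b, -0.32 to 0.073 for miR-301a (turned without Holstein-Friesian replicate 2) and 0.27 to 0.57 for the ratio of miR-130a over miR-130b, and 71 to 152 miRNAs were called (74 without Holstein-Friesian replicate 4 and 71 without Limousin replicate 1). The longer over shorter probe ratio of miR-130b, chosen after seeing the data, was 0.11 to 0.15, with an exact permutation p of 0.0571 without Limousin replicate 2, 3 or 4 and of 0.514 with quantile normalisation. Over 10 other alternatives, most added after seeing the data, the ratio of miR-130a over miR-130b was 0.24 to 0.70, with an exact permutation p of 0.0571 to 0.257. Same-numbered samples did not deviate together (correlations -0.52 to -0.012), so numbers were not taken as pairs. With the replicate block 84 miRNAs were called, no member passed (limma adjusted p 0.523, 0.171 and 0.545 for miR-130a, miR-130b and miR-301a), and the probe of 17 bases of miR-130b was no longer significant (adjusted p = 0.0826). Asking for all spots well above background left miR-301a on 0 Holstein-Friesian and 3 Limousin arrays, and the scanner software's call gave 4 and 4. Signal over background limits miR-301a, miR-301b and miR-454.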
